A study of Mus musculus with 4 samples.

Results

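Chemokine genes that endothelial cells are known to transcribe were followed through aortic and lung endothelium of Oct4 knockout and wild-type mice: Cxcl1, Cxcl2, Cxcl9, Cxcl10, Cxcl12, Cxcl16, Cx3cl1, Ccl2, Ccl5 and Ccl7. They are 10 of the 31053 rows of each count matrix, and were found by gene symbol in the aorta and by Ensembl identifier in the lung. Barcodes were kept as cells when they held at least 500 UMIs (unique molecular identifiers, each standing for 1 captured transcript), at most 15% mitochondrial UMIs and 0 UMIs of Ptprc, the gene of the leukocyte antigen CD45. Of 3401 deposited barcodes, 3235 passed. They were 1562 of 1623 in knockout aorta, 404 of 449 in wild-type aorta, 499 of 529 in knockout lung and 770 of 800 in wild-type lung.

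The mice were females of a C57/B6J endothelial lineage-tracing line that lacks Apoe, the apolipoprotein that clears remnant lipoproteins, and all of them ate a Western diet for 5 weeks. Knockout mice lacked Oct4 (Pou5f1, a transcription factor of pluripotent cells) in endothelial cells, and wild-type mice kept it. Aortas and left lung lobes of 3 knockout and 2 wild-type mice were digested in buffers with actinomycin D, a blocker of transcription, at 1 µg/mL, and eYFP-positive cells were sorted with a gate set on Cdh5-negative littermates. Each tissue and genotype is 1 library, so the mice within a library cannot be told apart. With 1 library a group nothing was tested between groups, and the 95% intervals given cover counting error only.

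The kept cells held 4385756 UMIs in knockout aorta, 989757 in wild-type aorta, 1014766 in knockout lung and 1475856 in wild-type lung, with medians of 2322, 2090, 1731 and 1642 UMIs per cell in that order. All 8 endothelial markers were detected in every library, and 92.4% to 94.2% of cells held a UMI of Pecam1 or Cdh5. Marker sums of other cells were not 0: 12 leukocyte markers summed to 74.9 to 551 CPM (a gene's UMIs scaled to a common total for the kept cells of each library) and 7 fibroblast markers to 0.985 to 1072 CPM. Pou5f1 itself had 1 UMI in knockout aorta, 0 in wild-type aorta, 1 in knockout lung and 2 in wild-type lung before filtering, which is too few to check the genotype labels. The deepest knockout lung barcode held 42860 UMIs, 4.22% of that library, of which 28398 were of the airway gene Scgb1a1; it held 1 UMI of the 10 chemokines.

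Chemokines are small secreted proteins that bind receptors on leukocytes and draw them toward a vessel wall. Cxcl1 and Cxcl2 act on neutrophils through Cxcr2, Cxcl9 and Cxcl10 are induced by interferon and act on T cells through Cxcr3, Ccl2 and Ccl7 act on monocytes through Ccr2, and Ccl5 draws T cells and monocytes. Cxcl12, the ligand of Cxcr4 and of the scavenger Ackr3, is made steadily by many endothelial and stromal cells, while Cxcl16 and Cx3cl1 are made as membrane proteins that bind Cxcr6 and Cx3cr1 and are released by Adam10 and Adam17.

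Promoters of 6 of the 10 genes were matched in RefSeq (build GRCm38.p6), each running from 250 bases before the gene start to 50 bases after it. The windows below are shown because Cxcl1, Cxcl2 and Cxcl10 were the members of these 6 whose promoter held a match to the kappaB consensus, the site of NF-kappaB proteins, and because the cells positive for these genes are set against NF-kappaB and interferon genes further on. Capitals mark the matches, which were searched on both strands, and each window reads 5′ to 3′ along the gene. Cxcl1 is chr5:90891149-90891209 on the plus strand, Cxcl2 is chr5:90903777-90903837 on the plus strand and Cxcl10 is chr5:92348958-92349127 on the minus strand.
Cxcl1: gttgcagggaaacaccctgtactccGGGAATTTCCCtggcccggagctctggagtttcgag
Cxcl2: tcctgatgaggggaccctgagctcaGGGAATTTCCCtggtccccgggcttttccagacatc
Cxcl10: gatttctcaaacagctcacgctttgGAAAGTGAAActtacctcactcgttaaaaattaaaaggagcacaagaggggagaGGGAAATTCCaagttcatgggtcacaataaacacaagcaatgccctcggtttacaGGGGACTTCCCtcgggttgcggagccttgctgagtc
The capitals of Cxcl1 lie at -71 to -61 from the gene start and those of Cxcl2 at -97 to -87, and each holds 2 overlapping kappaB matches. In Cxcl10 the first capitals, at -213 to -204, match the interferon-stimulated response element GAAANNGAAA, and the others, at -159 to -150 and -104 to -94, match the kappaB consensus. Of all 32851 RefSeq promoters of this length, 8.46% held a kappaB match and 3.44% held GAAANNGAAA. Cxcl9, Cxcl12 and Cx3cl1 had neither in this window. A match is a description of letters, not a measured site. The genes lie in mm10 on chromosome 5 (Cxcl1, Cxcl2, Cxcl9, Cxcl10), 6 (Cxcl12), 8 (Cx3cl1) and 11 (Cxcl16, Ccl2, Ccl5, Ccl7).

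More of the chemokines were 2-fold apart between tissues than between genotypes, as were more of all genes. A gene counted as measured when its mean over both libraries reached 50 CPM and its summed UMIs reached 30, and as apart at 2-fold or more. Between knockout and wild-type aorta 6 of the 10 chemokines were measured and 2 were apart, Cxcl9 and Ccl5, both lower in the knockout, against 1.34% of all 2994 measured genes. Between knockout and wild-type lung 3 were measured and 0 were apart, against 1.32% of 3268 genes. Between wild-type aorta and wild-type lung 5 were measured and 4 were apart, Cxcl1, Cxcl2 and Cxcl9 higher and Cxcl12 lower in the aorta, against 22.2% of 3215 genes. Between knockout aorta and knockout lung 4 were measured and 3 were apart, Cxcl1 and Cxcl2 higher and Cxcl12 lower in the aorta, against 23.9% of 3181 genes. The median log2 ratio of the measured chemokines was 0.08 in the aortic genotype comparison and -0.17 in the lung one, beside 0.04 and -0.06 over all measured genes. Over the tissues it was 2.10 in wild-type and 3.11 in knockout, beside -0.09 and 0.01. Cxcl1 and Cxcl2 in both genotypes, and Cxcl9 in wild-type, were under 50 CPM in the lung and were measured only through the aortic library. In the aortic genotype comparison Cxcl9 and Ccl5 were measured only through the wild-type. The filter thus shapes these counts and medians, which rest on 3 to 6 members and are descriptions.

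**Figure D1:**
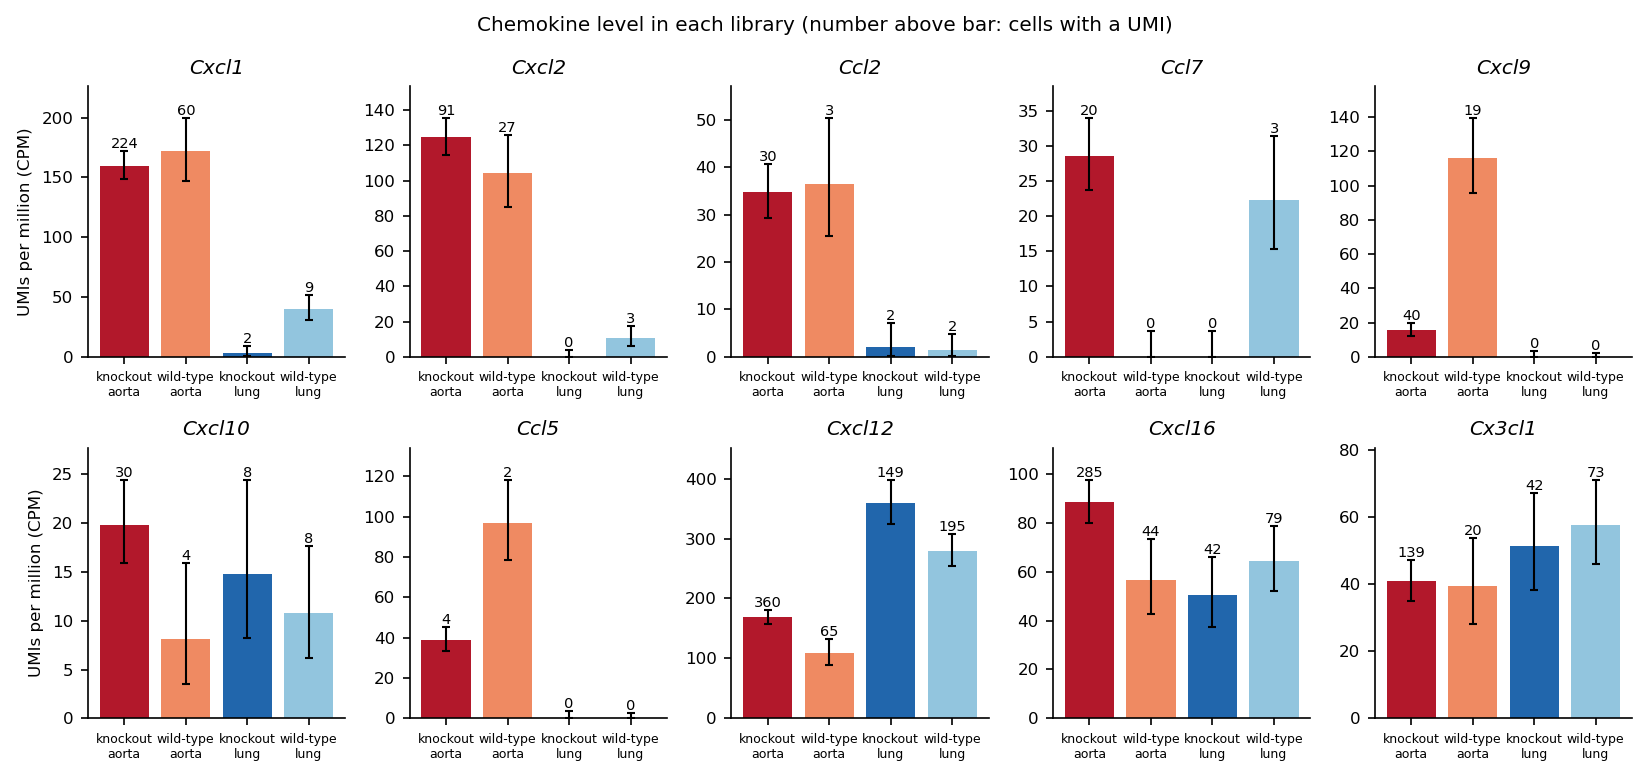
Level of each chemokine (y axis, CPM, linear from 0) in knockout aorta, wild-type aorta, knockout lung and wild-type lung, with exact Poisson 95% intervals as bars and the number of cells with a UMI printed above each bar. Cxcl1 and Cxcl2 stand high in both aortic libraries, Cxcl12 stands higher in both lung libraries than in both aortic ones, and Cxcl9 and Ccl5 are at 0 in both lung libraries.

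Cxcl1 and Cxcl2, the neutrophil-attracting pair, were aortic in both genotypes. Cxcl1 stood at 160 CPM in knockout aorta (95% interval 148 to 172), 172 in wild-type aorta (147 to 200), 2.96 in knockout lung (0.610 to 8.64) and 40.0 in wild-type lung (30.4 to 51.6). Cxcl2 stood at 125 CPM in knockout aorta (115 to 136), 104 in wild-type aorta (84.9 to 126), 0 in knockout lung, where 3 counts would be 2.96 CPM, and 10.8 in wild-type lung (6.20 to 17.6). Both aortic libraries were high and both lung libraries low. Cxcl1 was 54.1-fold higher in knockout aorta than in knockout lung (18.4 to 263) and 4.30-fold higher in wild-type aorta than in wild-type lung (3.18 to 5.88). Cxcl2 was at least 42.2-fold higher in knockout aorta than in knockout lung and 9.60-fold higher in wild-type aorta than in wild-type lung (5.64 to 17.4).

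Between knockout and wild-type aorta the intervals of both ratios included 1. The ratio was 0.931 for Cxcl1 (0.786 to 1.11) and 1.20 for Cxcl2 (0.969 to 1.49), and each gene was higher in the knockout in 4 of the 8 clusters that held at least 20 cells of both libraries and lower in the other 4. When each library's highest cell was left out, the ratio of Cxcl2 was 1.56 (1.22 to 2.03), since 30.1% of the wild-type UMIs, 31 of 103, lay in 1 cell. In the lung Cxcl1, under the measured level there, was 13.5-fold lower in the knockout (4.41 to 67.4), on 3 knockout and 59 wild-type UMIs. Of those 59, 40 (67.8%) lay in 6 cells of lung cluster 9, which was left unnamed and was not endothelial by its markers, and 13 of the rest lay in 1 venous-like cell. Fibroblast markers summed to 0.985 CPM in knockout lung and 395 CPM in wild-type lung, with 6 of 7 at 0 in knockout lung; their part in the Cxcl1 difference was not tested. Of the 16 wild-type lung UMIs of Cxcl2, 13 were in 1 cell with 432 UMIs of neutrophil markers and none of endothelial markers.

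Few cells carried the pair. A UMI of Cxcl1 was present in 14.3% of knockout aortic cells (224 of 1562) and 14.9% of wild-type ones (60 of 404), and one of Cxcl2 in 5.83% (91) and 6.68% (27). As a measure of free RNA, the cluster with the lowest share of Cxcl1-positive cells was at 1.47% in knockout aorta (68 cells, median 1197 UMIs, against 2322 in the library) and at 2.56% in wild-type aorta (39 cells, median 2052 UMIs, against 2090). With every cell thinned to 1000 UMIs, the shares were 7.99% and 7.83% for Cxcl1 and 3.68% and 3.31% for Cxcl2 in knockout and wild-type aorta. A positive cell held on average 3.13 and 2.83 UMIs of Cxcl1 and 6.01 and 3.81 of Cxcl2 in the same order. The cells with most Cxcl2 in knockout aorta held 46, 43 and 38 UMIs. The first held 15 UMIs of endothelial, 45 of fibroblast and 16 of epithelial markers. The second also held 36 of Cxcl1, 9 of Cxcl10 and 2 of Cxcl16, with 22 UMIs of endothelial markers and none of macrophage, T or neutrophil markers.

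Cells were clustered within each tissue, both genotypes together and with 41 chemokine ligand genes left out, and clusters were named from marker genes as artery-like, capillary-like, venous-like, lymphatic-like or, in the lung, aerocyte-like (the large capillary cells of the gas exchange surface). In the aorta Cxcl1 and Cxcl2 were highest in artery-like cluster 6, which was led by immediate early genes such as Fos and Fosb. There Cxcl1 stood at 436 CPM in knockout cells (204 cells) and 396 CPM in wild-type cells (54 cells), and Cxcl2 at 480 CPM in knockout and 346 CPM in wild-type cells. That cluster held 67.3% of all Cxcl2 UMIs of knockout aorta and 68.0% of those of wild-type aorta. Cxcl1 was spread more widely, with 275 CPM in knockout and 162 CPM in wild-type capillary-like cells, and 99.2 CPM in knockout and 202 CPM in wild-type venous-like cells.

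**Figure D2:**
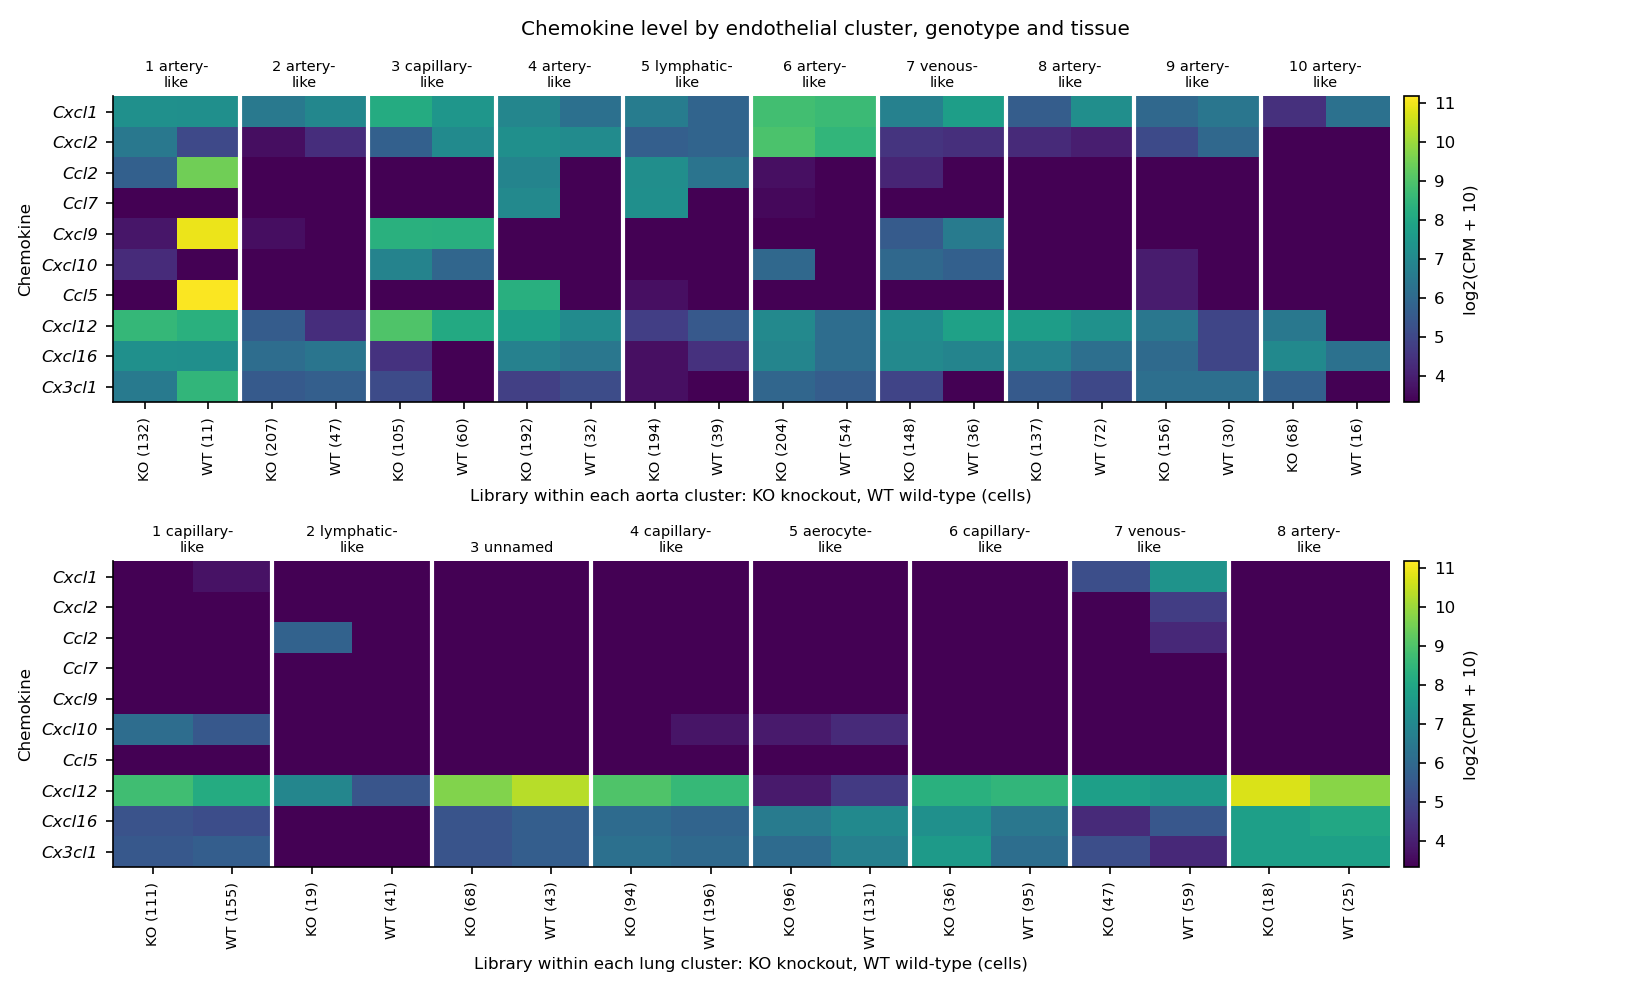
Level of each chemokine (colour, log2 of CPM plus 10) in every endothelial cluster of the aorta (top) and lung (bottom), with the knockout column left of the wild-type column of each cluster and cell numbers in brackets. Cxcl2 and Cxcl1 are brightest in aortic cluster 6, Cxcl9 in aortic capillary-like cluster 3 apart from the 11 wild-type cells of cluster 1, and Cxcl12 in lung clusters 3 and 8.

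Cxcl9 and Cxcl10, the interferon-induced pair, stood highest in aortic capillary-like cells among the named classes. Cxcl9 stood at 15.7 CPM in knockout aorta (12.2 to 19.9), 116 in wild-type aorta (95.9 to 140), and 0 in both lung libraries, where 3 counts would be 2.96 CPM in knockout and 2.03 CPM in wild-type cells. In all cells Cxcl9 was 7.39-fold lower in knockout aorta (5.43 to 10.1). Of the 115 wild-type UMIs, 83 (72.2%) lay in 1 cell. The 69 knockout UMIs were in 40 cells, and the other wild-type UMIs were in 18. Without the highest cell of each library Cxcl9 was 2.43-fold lower in the knockout, and in capillary-like cluster 3 it stood at 306 CPM in knockout cells (227 to 403) and 300 CPM in wild-type cells (192 to 446). Capillary-like cells were 6.72% of kept knockout aortic cells (105) and 14.9% of kept wild-type ones (60). Over the 8 clusters with at least 20 cells of both libraries, weighted alike, the log2 ratio of Cxcl9 was -0.15 instead of -2.88. Those 8 leave out cluster 1, where the wild-type cell with 83 UMIs lies.

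Cxcl9 had a UMI in 2.56% of knockout aortic cells and 4.70% of wild-type ones, and in 28 of 105 knockout and 17 of 60 wild-type capillary-like cells. Artery-like cluster 4 had 0 positive cells among 192 knockout cells (median 2664 UMIs, against 2322 in the library), and artery-like cluster 2 had 0 among 47 wild-type cells (median 1541 UMIs, against 2090). Cxcl10 was too low to be measured by the rule above. It stood at 19.8 CPM in knockout aorta (15.9 to 24.5), 8.08 in wild-type aorta (3.49 to 15.9), 14.8 in knockout lung (8.27 to 24.4) and 10.8 in wild-type lung (6.20 to 17.6). The aortic ratio was 2.45 (1.19 to 5.86), on 87 knockout and 8 wild-type UMIs, and 14 of the 87 were in 1 cell. Among aortic classes the level of Cxcl10 was highest in capillary-like cells, at 104 CPM in knockout and 49.99 CPM in wild-type cells. Most knockout aortic UMIs, 49 of 87 (56.3%), were however in artery-like cells, at 14.8 CPM, and 17 (19.5%) were in capillary-like cells. Wild-type artery-like cells held 0, where up to 5.24 CPM is allowed by the exact interval. Artery-like cluster 6 held 42.1% of the Cxcl10 UMIs of both aortic libraries together. In the lung Cxcl10 was seen mainly in capillary-like cluster 1, at 60.5 CPM in knockout and 35.0 CPM in wild-type cells. Leading genes of that lung cluster included Atf3, Iigp1 and Isg15 but no capillary marker, though 5 of 7 capillary markers were detected in it.

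Ccl2 and Ccl7, the monocyte-attracting pair, and Ccl5 rested on very few cells. Ccl2 stood at 34.7 CPM in knockout aorta (29.4 to 40.6), 36.4 in wild-type aorta (25.5 to 50.4), 1.97 in knockout lung and 1.36 in wild-type lung, the last 2 values being 2 UMIs each. Ccl7 stood at 28.5 CPM in knockout aorta (23.7 to 34.0), 0 in wild-type aorta and 0 in knockout lung, and 22.4 in wild-type lung (15.4 to 31.4). Ccl5 stood at 38.8 CPM in knockout aorta (33.1 to 45.1), 97.0 in wild-type aorta (78.6 to 118), and 0 in both lung libraries. Ccl2 was found in 30, 3, 2 and 2 cells, Ccl7 in 20, 0, 0 and 3, and Ccl5 in 4, 2, 0 and 0 cells of knockout aorta, wild-type aorta, knockout lung and wild-type lung.

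In knockout aorta the cells highest in these genes differed in their markers. The cell with 40 UMIs of Ccl2 and 36 of Ccl7 held 143 UMIs of macrophage markers and 1 of endothelial markers, and one with 25 UMIs of Ccl7 and 8 of Ccl2 held 112 and 0. The 8 kept cells with at least 3 UMIs of leukocyte markers together held 38.8% of knockout aorta's Ccl2, 53.6% of its Ccl7 and 98.2% of its Ccl5. A cell with 13 UMIs of Ccl2 held 188 UMIs of fibroblast and 50 of endothelial markers. Lymphatic-like cells formed another group: Ccl2 stood at 138 CPM (104 to 180) and Ccl7 at 141 CPM (107 to 182) in the 194 knockout lymphatic-like cells, in which 18 and 16 cells were positive. In the 39 wild-type lymphatic-like cells Ccl2 stood at 71.3 CPM (26.2 to 155), and Ccl7 at 0, where up to 43.8 CPM is allowed by the exact interval. Over the whole aorta Ccl7 was at least 9.40-fold higher in the knockout, and the Ccl2 ratio was 0.953 (0.659 to 1.41), or 4.16 without the highest cell of each library. Both genes were under the measured level there, and the Ccl7 ratio includes the leukocyte-marker cells above. In wild-type lung 31 of 33 Ccl7 UMIs were in 1 cell with 122 UMIs of fibroblast markers and none of endothelial markers.

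Ccl5 was 2.50-fold lower in knockout aorta (1.93 to 3.23), and this is a comparison of 2 cells. In the knockout, 167 of 170 UMIs were in 1 cell with 29 UMIs of T and NK cell markers and none of endothelial markers. In the wild-type, 95 of 96 UMIs were in the deepest cell of that library, with 13444 UMIs in all, 63 of endothelial markers and 0 of leukocyte markers. That cell held 8 of the 10 chemokines: 95 UMIs of Ccl5, 83 of Cxcl9, 30 of Ccl2, 11 of Cx3cl1, 7 of Cxcl12, 5 of Cxcl1, 3 of Cxcl16 and 1 of Cxcl2. It also held 185 UMIs of the adhesion gene Vcam1, 117 of Cd74, the invariant chain, and 36 of H2-Aa, an MHC class II gene, which were 16.5%, 90.7% and 94.7% of the library's UMIs of these genes. Scrublet did not call it a doublet, but whether this barcode held 1 cell or 2 cells cannot be told apart from its counts. Without it, an alternative chosen after the values were seen, the log2 ratio of Ccl5 was 5.24 instead of -1.32, on 1 wild-type UMI, and that of Cxcl9 was -1.06 instead of -2.88. Both genes were then under the measured level, so the count of measured members 2-fold apart was 0 of 4. Without the highest barcode of both libraries the ratio of Ccl5 was 0.668 (0.0537 to 35.1), on 3 knockout UMIs and 1 wild-type UMI.

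**Figure D3:**
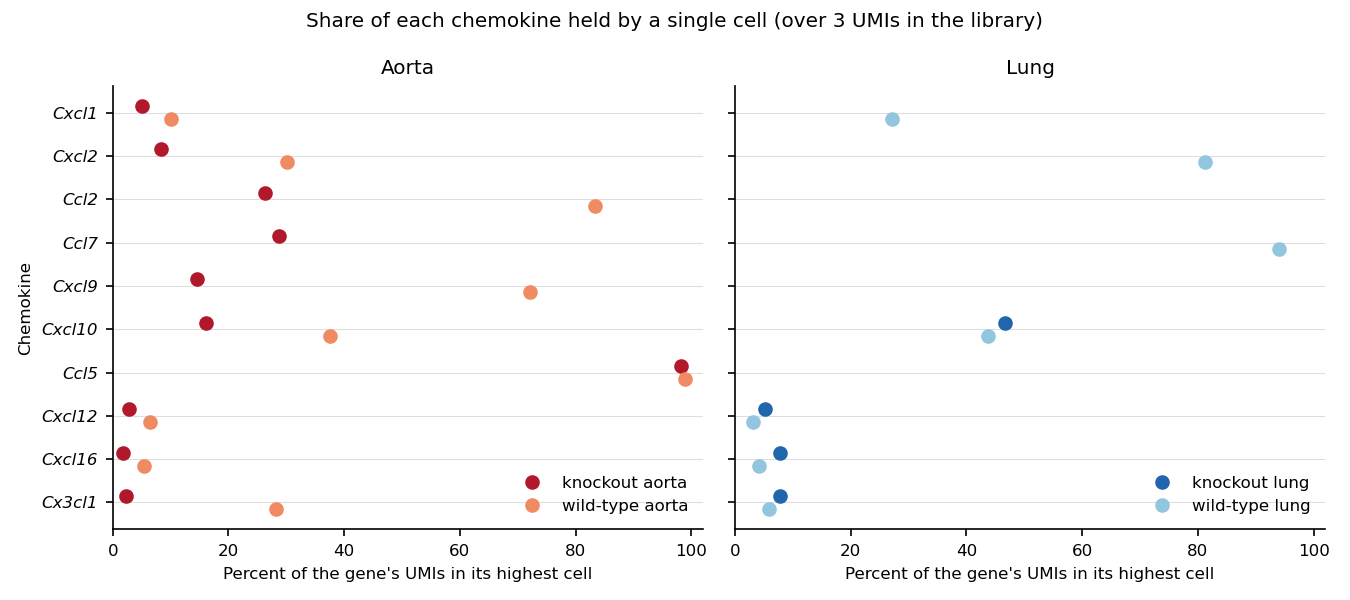
Percent of each chemokine's UMIs held by its highest cell (x axis) in the aorta (left) and lung (right), with 1 point per library and libraries with 3 or fewer UMIs of the gene left out. Cxcl12 and Cxcl16 stay under 8% in every library, while Ccl5 is above 98% in both aortic libraries.

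Cxcl12, the ligand of Cxcr4, was found in more cells than any other member in each library, and was the measured member that was 2-fold higher in the lung. It stood at 169 CPM in knockout aorta (157 to 181), 109 in wild-type aorta (89.5 to 132), 360 in knockout lung (324 to 399) and 280 in wild-type lung (254 to 308). Both lung libraries were above both aortic ones, and in each tissue the knockout was above the wild-type. Cxcl12 was 2.13-fold lower in knockout aorta than in knockout lung (1.88 to 2.42) and 2.57-fold lower in wild-type aorta than in wild-type lung (2.07 to 3.20). The ratio of knockout to wild-type was 1.55 in the aorta (1.26 to 1.91) and 1.29 in the lung (1.11 to 1.48), both under 2-fold. In the aorta Cxcl12 was higher in the knockout in 6 of 8 clusters and lower in 2, and in the lung higher in 3 of 6 and lower in 3. The 8 leave out artery-like cluster 1, which was 8.45% of knockout cells (132) and 2.72% of wild-type cells (11), held 37.0% of the knockout's and 12.04% of the wild-type's Cxcl12 UMIs, and stood at 366 CPM in knockout (324 to 412) and 305 CPM in wild-type cells (162 to 522). Fibroblast markers were at 1072 CPM in the knockout (7 of 7 detected) and 313 CPM in the wild-type (6 of 7, Dpt at 0), and smooth muscle markers at 1721 CPM and 1233 CPM (7 of 7 in both). The 3 cells highest in Cxcl12 in knockout aorta, all in cluster 1, held 92, 130 and 6 smooth muscle and 0, 1 and 72 fibroblast marker UMIs. The part of these cells and of cluster 1 in the ratio was not tested. Across 13 alternative settings the aortic log2 ratio ran between 0.41 and 0.71.

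A UMI of Cxcl12 was present in 23.0% of knockout and 16.1% of wild-type aortic cells, and in 29.9% of knockout and 25.3% of wild-type lung cells. The lowest cluster was at 3.61% in the aorta of knockouts (lymphatic-like, 194 cells, median 1906 UMIs, against 2322 in the library) and at 2.13% in that of wild-types (artery-like cluster 2, 47 cells, median 1541 UMIs, against 2090). In the lung it was the aerocyte-like cluster, at 1.04% of 96 knockout cells (median 1926 UMIs, against 1731 in the library) and 3.05% of 131 wild-type cells (median 2324, against 1642). With every cell thinned to 1000 UMIs, 11.9% of knockout and 9.04% of wild-type aortic cells and 20.6% of knockout and 16.7% of wild-type lung cells were positive. It took 75 knockout aortic, 17 wild-type aortic, 32 knockout lung and 38 wild-type lung cells to hold 50% of the UMIs, and no cell held more than 6.48% of them.

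In the lung Cxcl12 followed vessel type. Artery-like cells held 1671 CPM in knockouts (1266 to 2165, 18 cells) and 866 CPM in wild-types (632 to 1159, 25 cells). The unnamed cluster 3, led by H2-Aa, Cd74 and Sema3c, held 811 CPM in knockout and 1282 CPM in wild-type cells. Like capillary-like cluster 1 it had 5 of 7 capillary markers detected and none among its leading genes. It is not counted in the capillary-like values. Capillary-like cells held 433 CPM in knockouts (371 to 502) and 323 CPM in wild-types (284 to 366), and venous-like cells 206 CPM in knockout and 170 CPM in wild-type. Aerocyte-like cells held 4.76 CPM in knockout and 15.02 CPM in wild-type cells. In the artery-like cells 1 knockout cell with 19 UMIs held 33.3% of the knockout UMIs. In the aorta the highest level of the named classes was in capillary-like cells, at 508 CPM in knockouts (404 to 630) and 262 CPM in wild-types (162 to 401), and lymphatic-like cells were low, at 17.3 CPM in the knockout (6.95 to 35.6) and 35.6 CPM in the wild-type (7.35 to 104).

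Cxcl16 and Cx3cl1, the membrane-bound members, were spread thinly over many cells of both tissues. Cxcl16 stood at 88.5 CPM in knockout aorta (79.9 to 97.7), 56.6 in wild-type aorta (42.7 to 73.5), 50.3 in knockout lung (37.4 to 66.1) and 64.4 in wild-type lung (52.1 to 78.7). The knockout aorta was the highest of the 4 libraries. The ratio of knockout to wild-type was 1.56 in the aorta (1.18 to 2.11), where Cxcl16 was higher in the knockout in 6 of 8 clusters, and 0.781 in the lung (0.544 to 1.11). Cluster 1, outside those 8 and a larger share of knockout than of wild-type cells, held 27.8% of the knockout's and 10.7% of the wild-type's Cxcl16 UMIs, at 144 CPM in knockout (118 to 174) and 141 CPM in wild-type cells (51.6 to 306). Its part in the ratio, and that of the fibroblast markers given above, was not tested. Cxcl16 was 1.76-fold higher in knockout aorta than in knockout lung (1.31 to 2.41), and the ratio of wild-type aorta to wild-type lung was 0.879 (0.620 to 1.24).

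Cx3cl1 stood at 40.8 CPM in knockout aorta (35.1 to 47.2), 39.4 in wild-type aorta (28.0 to 53.9), 51.2 in knockout lung (38.3 to 67.2) and 57.6 in wild-type lung (46.0 to 71.2). These intervals overlapped between genotypes in each tissue, with ratios of knockout to wild-type of 1.04 in the aorta (0.729 to 1.51) and 0.890 in the lung (0.618 to 1.27). In wild-type aorta 11 of 39 UMIs were in the deepest cell named above. A UMI of Cxcl16 was present in 18.2% of knockout and 10.9% of wild-type aortic cells, and in 8.42% of knockout and 10.3% of wild-type lung cells. One of Cx3cl1 was found in 8.90% and 4.95% of knockout and wild-type aortic cells, and in 8.42% and 9.48% of knockout and wild-type lung cells. The lowest clusters were at 0.515% for both genes in knockout aorta (lymphatic-like, 194 cells, median 1906 UMIs) and at 0% in wild-type lung (lymphatic-like, 41 cells, median 2335 UMIs).

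In the lung, Cxcl16 and Cx3cl1 were present in aerocyte-like cells, and like Cxcl12 they had their highest class level in artery-like cells, on few UMIs. Cxcl16 stood at 205 CPM in the 18 knockout artery-like cells (82.5 to 423, 7 UMIs) and 250 CPM in the 25 wild-type ones (133 to 428, 13 UMIs). Cx3cl1 stood at 205 CPM (82.5 to 423, 7 UMIs) in knockout and 212 CPM (106 to 379, 11 UMIs) in wild-type artery-like cells, and at 91.8 CPM and 123 CPM without the highest cell of each. Aerocyte-like cells, almost without Cxcl12, held 85.6 CPM of Cxcl16 in knockouts and 123 CPM in wild-types, and 57.1 CPM of Cx3cl1 in knockouts and 96.1 CPM in wild-types. Lymphatic-like lung cells held none of either gene (19 knockout and 41 wild-type cells). In the aorta Cxcl16 stood at 102.2 CPM in knockout and 63.9 CPM in wild-type artery-like cells and at 120 CPM in knockout and 106 CPM in wild-type venous-like cells, but at 12.2 CPM in knockout and 0 in wild-type capillary-like cells. Cx3cl1 differed from it in venous-like cells, with 20.3 CPM in knockout and 0 in wild-type ones.

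Co-detection was read first with every cell thinned to 1000 UMIs, since deep cells show more genes. Then at least 1 of the 10 chemokines was found in 30.8% of 1414 knockout aortic, 25.3% of 332 wild-type aortic, 30.5% of 383 knockout lung and 28.2% of 628 wild-type lung cells. At least 2 of them were found in 7.07% and 5.72% of knockout and wild-type aortic cells and in 1.83% and 2.71% of knockout and wild-type lung cells. Of the 45 pairs of chemokines, 11 shared at least 5 cells in knockout aorta, 1 in wild-type aorta, 0 in knockout lung and 3 in wild-type lung, and these counts move with the number of cells.

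Cxcl1 and Cxcl2 were found together. In knockout aorta 38.5% of the 52 Cxcl2-positive cells held Cxcl1 (25.3 to 53.0), against 6.83% of the others (5.55 to 8.30). Over 20 other random thinnings the share lay between 38.5% and 67.4%, with a median of 49.1%. In wild-type aorta those 20 thinnings gave 23.1% to 57.1%, with a median of 36.9%, against 6.31% to 10.1% of Cxcl2-negative cells. With all UMIs used, 72.5% of knockout and 59.3% of wild-type Cxcl2-positive cells held Cxcl1, against 10.7% and 11.7% of Cxcl2-negative ones. Within cluster 6 at 1000 UMIs, 50% of Cxcl2-positive against 22.0% of Cxcl2-negative knockout cells held Cxcl1, and 33.3% (2 of 6 cells) against 17.4% of wild-type cells. With all UMIs these shares were 84.4% against 30.8% in knockout cells and 71.4% against 20% in wild-type cells. Outside cluster 6 at 1000 UMIs the shares were 22.7% (5 of 22 cells) against 4.69% in knockout cells and 40% (2 of 5 cells) against 5.09% in wild-type cells, and with all UMIs 60.9% against 8.31% and 46.2% against 10.7%.

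Ccl2 was found in 57.1% of the 14 Ccl7-positive thinned cells of knockout aorta (28.9 to 82.3), against 0.714% of the others. Of those 14 Ccl7-positive cells 11 were lymphatic-like and 3 artery-like, and among all 152 lymphatic-like cells 9.87% held Ccl2. With all UMIs, 3 of the 20 Ccl7-positive cells held at least 3 UMIs of leukocyte markers. This pair was not read within a class. Cxcl12 was found in 42.1% of 19 Cxcl9-positive cells (20.2 to 66.5) against 11.5% of the others in knockout aorta, and in 50% of 10 (18.7 to 81.3) against 7.76% in wild-type aorta. Of the Cxcl9-positive cells at that depth, 16 of 19 in the knockout and 8 of 10 in the wild-type were capillary-like, and among all capillary-like cells 39.3% in the knockout and 20.6% in the wild-type held Cxcl12. Cxcl12 was found in 21.7% of Cxcl16-positive knockout aortic cells (14.3 to 30.8) against 11.2% of the others. In wild-type lung the same pair gave 19.0% (8.60 to 34.1) against 16.6%. Cxcl16 was found in 18.5% of Cx3cl1-positive knockout aortic cells (9.26 to 31.4) against 7.06% of the others, and in 14.3% (4.81 to 30.3) against 6.24% in wild-type lung.

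**Figure D4:**
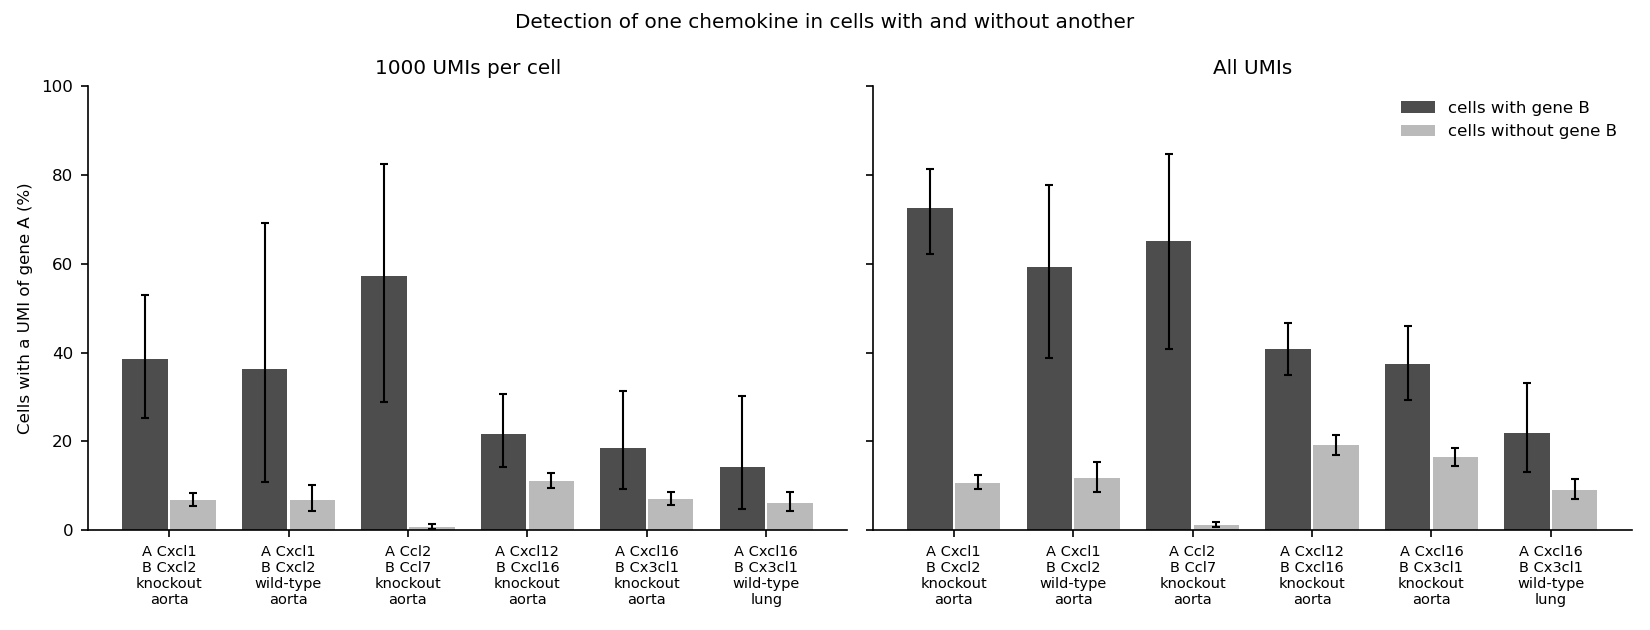
Percent of cells with a UMI of gene A (y axis) among cells with gene B (dark bars) and without gene B (light bars), for 6 pairs and libraries, at 1000 UMIs per cell (left) and with all UMIs (right), with exact binomial 95% intervals. The 6 were chosen without a fixed rule and do not stand for the other pairs. Cxcl12 with Cxcl16 in wild-type lung, where the shares lay close together, is not drawn. The dark bar stands above the light bar for every pair drawn, and the 2 intervals overlap only for Cxcl16 with Cx3cl1 in wild-type lung at 1000 UMIs. The Ccl7-positive cells were mostly lymphatic-like.

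Cells positive for Cxcl1, Cxcl2, Cxcl9 or Cxcl10 held more transcripts of NF-kappaB and immediate early genes than negative cells of the same aortic library. Endothelial-cluster cells thinned to 1000 UMIs were used, and a list of NF-kappaB response genes (21), immediate early genes (16) or interferon response genes (24) was summed. In knockout aorta the NF-kappaB list stood at 6622 CPM in 143 Cxcl1- or Cxcl2-positive cells and 3566 CPM in 1253 negative cells, a ratio of 1.86 (1.73 to 1.99). In wild-type aorta it stood at 5061 CPM in 33 positive and 2870 CPM in 292 negative cells, a ratio of 1.76 (1.48 to 2.08). The ratio of the immediate early list was 2.22 (2.11 to 2.33) in the knockout and 1.57 (1.40 to 1.75) in the wild-type, and that of the interferon list was 1.33 (1.18 to 1.499) and 1.145 (0.866 to 1.49). Without cluster 6 the knockout ratios were 1.495 for the NF-kappaB list and 1.905 for the immediate early list.

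Among the genes of these lists, Nfkbia, the inhibitor that NF-kappaB itself induces, stood at 1608 CPM in Cxcl1- or Cxcl2-positive and 664 CPM in negative knockout aortic cells, and at 1576 CPM and 706 CPM in wild-type ones. Icam1, a leukocyte adhesion receptor, stood at 664 CPM in positive and 331 CPM in negative knockout cells and at 758 CPM and 332 CPM in wild-type ones. Fos stood at 3287 CPM in positive and 1204 CPM in negative knockout cells. Klf6 showed little difference, with 259 CPM in positive and 266 CPM in negative knockout cells. These values come from 1 random thinning.

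Cells positive for Cxcl9 or Cxcl10 differed most in the interferon list. It stood at 7786 CPM in 28 positive and 1650 CPM in 1368 negative knockout aortic cells, a ratio of 4.72 (4.09 to 5.43), and at 9750 CPM in 12 positive and 1383 CPM in 313 negative wild-type cells, a ratio of 7.05 (5.70 to 8.66). Of the Cxcl9-positive cells 16 of 19 in the knockout and 8 of 10 in the wild-type were capillary-like. Of the 13 Cxcl10-positive knockout cells 6 were artery-like and 4 capillary-like, and 2 of 2 wild-type ones were capillary-like. Of all thinned cells 84 of 1414 knockout and 34 of 332 wild-type ones were capillary-like. The ratios were not taken within a class, and the part of vessel type in them was not tested. In knockout cells Isg15, a ubiquitin-like protein induced by interferon, stood at 1179 CPM in positive and 118 CPM in negative cells, and Iigp1, an interferon-induced GTPase, at 1714 CPM and 167 CPM. The immediate early ratios of these positive cells were 1.98 (1.78 to 2.19) in knockout aorta and 2.58 (2.24 to 2.95) in wild-type aorta, and their NF-kappaB ratios were 1.46 (1.24 to 1.71) and 1.57 (1.18 to 2.05). Irf1 is in both the NF-kappaB and the interferon list, and stood at 714 CPM in positive and 106 CPM in negative knockout cells. Ifi27l2a ran the other way, with 71.4 CPM in positive and 237 CPM in negative cells. Aortic Cxcl12-positive cells differed little in the NF-kappaB list, with ratios of 1.01 (0.934 to 1.10) in knockout aorta and 1.00 (0.801 to 1.24) in wild-type aorta. In the lung that ratio was 0.881 (0.787 to 0.983) in the knockout and 1.34 (1.23 to 1.45) in the wild-type, on opposite sides of 1. Their interferon ratios were 1.32 (1.18 to 1.47) in knockout aorta and 1.95 (1.54 to 2.45) in wild-type aorta, but 0.981 (0.832 to 1.15) in knockout lung and 0.945 (0.823 to 1.081) in wild-type lung.

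In knockout aorta the NF-kappaB ratio was 1.43 (1.31 to 1.56) for Cxcl16-positive cells and 1.45 (1.28 to 1.63) for Cx3cl1-positive cells. In the other libraries with a ratio the intervals included 1. For Cxcl16 it was 1.23 (0.928 to 1.59) in wild-type aorta, 0.824 (0.649 to 1.03) in knockout lung and 1.045 (0.913 to 1.19) in wild-type lung. For Cx3cl1 it was 0.991 (0.806 to 1.21) in knockout lung and 1.07 (0.922 to 1.23) in wild-type lung. These ratios were not taken within a class, and the part of vessel type was not tested. For the 24 knockout aortic cells positive for Ccl2 or Ccl7 the NF-kappaB ratio was 0.955 (0.766 to 1.18). Their interferon ratio was 2.13 (1.71 to 2.63) and their immediate early ratio 1.66 (1.46 to 1.87). At that depth 15 of 18 Ccl2-positive and 11 of 14 Ccl7-positive cells were lymphatic-like, and 3 of each were artery-like. The knockout cells with 143 and 112 UMIs of macrophage markers lie in artery-like cluster 4, so they count as endothelial-cluster cells. The parts of vessel type and of such cells in these ratios were not tested.

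**Figure D5:**
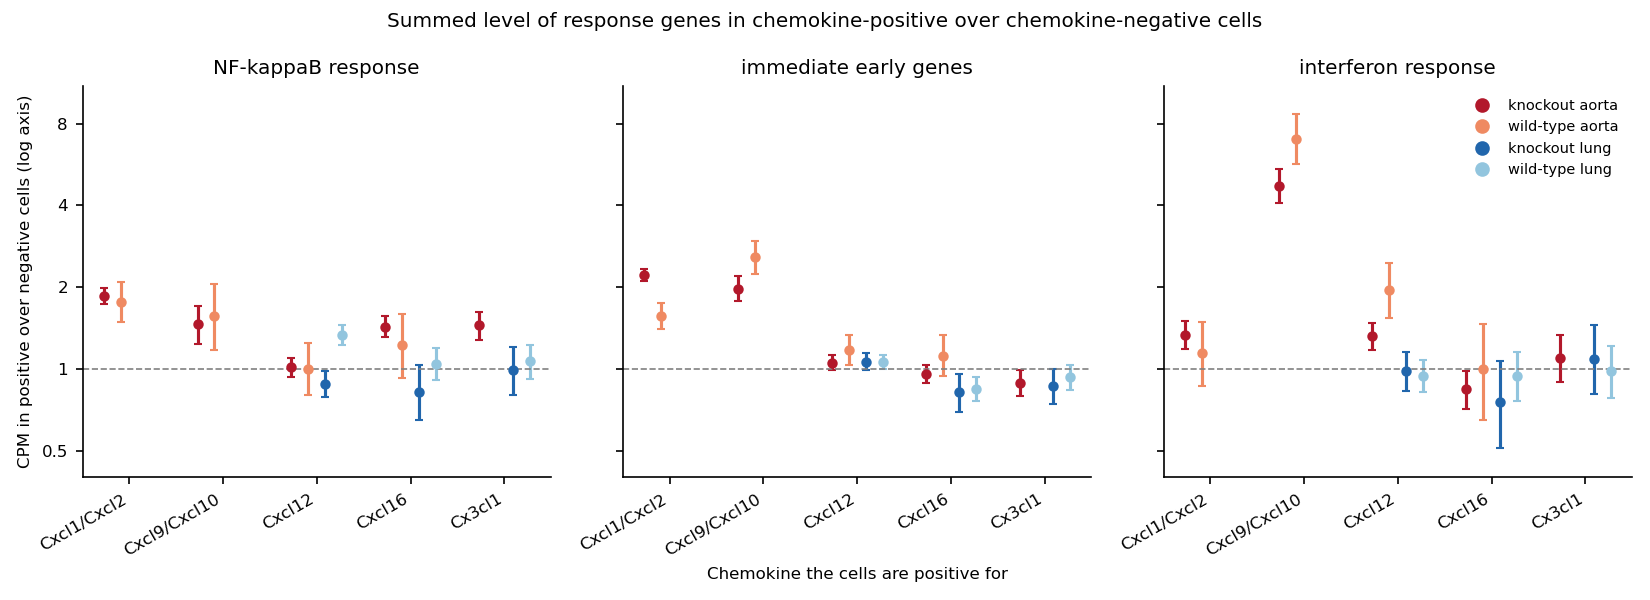
Ratio of the summed level of 3 gene lists in chemokine-positive over chemokine-negative cells (y axis, log scale), by the chemokine that defines the positive cells, at 1000 UMIs per cell, with 1 point and exact conditional 95% interval per library with at least 10 positive cells. Interferon genes in Cxcl9- or Cxcl10-positive cells stand farthest from 1, at 4.72 in knockout aorta and 7.05 in wild-type aorta. The Cxcl9-positive cells were mostly capillary-like, while 4 of 13 Cxcl10-positive knockout aortic cells were. The ratios are over all endothelial clusters together.

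Of the rest of the chemokine system few genes reached the measured level. Between genotypes 0 of them were 2-fold apart in either tissue, beside 1.34% of all measured genes in the aorta and 1.32% in the lung. Of 26 other chemokine ligands 1 was measured, Ccl21a, the lymphatic ligand of Ccr7, at 2410 CPM in knockout aorta, 2027 in wild-type aorta, 2139 in knockout lung and 2859 in wild-type lung. Of 18 signalling receptors 0 were measured. Ackr3, the scavenger of Cxcl12, stood at 283 CPM in knockout aorta, 387 in wild-type aorta, 148 in knockout lung and 102.3 in wild-type lung, and was 3.78-fold higher in wild-type aorta than in wild-type lung (3.12 to 4.60) and 1.92-fold higher in knockout aorta than in knockout lung (1.62 to 2.29). Ccrl2, which binds chemerin, ran the other way, at 37.6 CPM in knockout aorta, 32.3 in wild-type aorta, 107 in knockout lung and 122 in wild-type lung. Adam10, the sheddase of Cxcl16 and Cx3cl1, stood at 169 CPM in knockout aorta, 132 in wild-type aorta, 60.1 in knockout lung and 63.7 in wild-type lung. Dpp4, a peptidase that inactivates Cxcl12, stood at 0.456 CPM in knockout aorta, 0 in wild-type aorta, 76.9 in knockout lung and 73.9 in wild-type lung.

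Between genotypes the median log2 ratios of the response lists lay between -0.25 and 0.36. In the aorta 10 of 21 NF-kappaB genes were measured and 7 were higher in the knockout, with a median log2 ratio of 0.30, led by Selp at 304 CPM in knockout and 190 CPM in wild-type cells. The 8 measured interferon genes had a median of 0.36, with 5 higher, and all 14 measured immediate early genes were lower, with a median of -0.16, each list beside 0.04 over all measured genes. In the lung the medians were 0.00, -0.06 and -0.25, beside -0.06 over all measured genes. In either tissue 0 genes of any of these lists were 2-fold apart between genotypes, beside 1.34% of all measured genes in the aorta and 1.32% in the lung. At such shares a count of 0 in lists of this size says little.

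Over cluster-by-library sums, which share libraries and depth, the genes most like each chemokine by Pearson correlation of log2(CPM + 10) are given as a description. Over 18 sums of the aorta and 2994 genes, Cxcl9 was most like Tcf15 (r = 0.95), Fabp4 (0.94) and Cd36 (0.92), genes of fatty acid-handling capillaries. Cxcl16 was most like Ccdc80 (0.93), Bace2 (0.91) and Selp (0.90). Cxcl1 was most like Fosb (0.72), Phlda1 (0.71) and Gm12216 (0.70), and Cxcl2 like Ftl1 (0.70), Fosb (0.70) and Fos (0.69). Aortic Cxcl12 was most like Fabp5 (0.72), Hspa4 (0.67) and Pdia6 (0.67), and Ccl5 like H2-Eb1 (0.71), H2-Aa (0.70) and H2-Ab1 (0.68). Sums of under 20 cells were left out, so the deepest wild-type cell, among the 11 wild-type cells of cluster 1, was not used. Nearly all Ccl5 in these sums lay in 1 knockout cell of cluster 4 with 167 UMIs, which held 0 UMIs of Cd74 and 0 of H2-Aa. Over 15 sums of the lung and 3268 genes, Cxcl12 was most like Rnf144a (0.93), Pde3a (0.92) and Ptprb (0.91), and Cxcl16 and Cx3cl1 ranked first for each other (0.90). Next came Cdc42bpa (0.82) and Tapbpl (0.78) for Cxcl16, and Tapbpl (0.85) and Lgals3bp (0.81) for Cx3cl1.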

How the data were processed

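The 4 libraries were 10x Chromium captures of eYFP-sorted cells. The deposited values are whole UMI counts per gene and barcode. The submitters' processing notes name Cell Ranger as the authors' tool and mm10 as the build; its version and the annotation are not given in the sources used. Lung rows carry Ensembl identifiers, of which 30934 of 31053 matched a symbol in GENCODE vM21, the reference at hand, and 119 did not. The authors' own cell annotation was not used here. The 10 members and the gene lists were chosen with earlier results of these data known.

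Cells were kept at 500 UMIs or more, at most 15% mitochondrial UMIs and 0 Ptprc UMIs. Scrublet called 5, 5, 7 and 3 doublets in knockout aorta, wild-type aorta, knockout lung and wild-type lung, and these were kept except in an alternative. Libraries shared between 0 and 2 barcodes in pairs. Counts were summed over cells and scaled to CPM. Levels have exact Poisson intervals, shares Clopper-Pearson intervals and ratios exact conditional intervals, all at 95% and for counting error only, since molecules of 1 cell or 1 mouse are not independent. A library at 0 counts was set to a floor of 3 counts in the library for "at least" ratios. For shares at matched depth each cell was thinned at random (seed 7) to 1000 UMIs, which left out 148, 72, 116 and 142 shallower cells in the same order of libraries. Cells were clustered per tissue by the Leiden method (2000 variable genes, 30 principal components, 15 neighbours, resolution 1) without 41 chemokine ligand genes, and clusters were named from fixed markers. Aortic clusters 1, 2, 8 and 10 of the artery-like class had markers of another class among their leading genes. Counts of clusters higher or lower between genotypes were therefore taken by cluster number. Levels given for the artery-like class pool its clusters, and cluster 1 was 132 of 1096 knockout and 11 of 262 wild-type cells of that class. Markers of another class also stood among the leading genes of aortic clusters 3 and 7 and lung clusters 4, 6 and 7. Lung cluster 1, named capillary-like, had no marker of any class among them. Class values are descriptions.

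The text names the 10 members, the 2 highest and 2 lowest measured genes of each list in part, and the 3 genes most like each member with a mean of at least 50 CPM in the tissue. Bearers of single-cell values, Ccrl2 and Dpp4, and the list genes given for positive and negative cells were picked after their values were seen. The pairs given and drawn for co-detection were picked without a fixed rule. Tools were Python 3.11.15, numpy 2.4.6, scipy 1.17.1, pandas 2.3.3, scanpy 1.11.5, leidenalg 0.10.2 and matplotlib 3.10.9. The summing, scaling and ratio steps were tested on simulated data. No column of per-sample values was left unused (0). Alternatives changed the cell filters, the summary per cell, the thinning, the cluster resolution and the filter on low counts. Of the members, Cxcl2 alone shared 50-base stretches of its 3′ end with another gene (4.78% of them).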

Additional observations from a re-analysis of the deposited data

Results flagged for a closer look

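Barcodes that the cell filters removed held higher levels of some chemokines than the kept cells of the same library, on very few barcodes. In the knockout aorta library the 54 barcodes under the UMI or over the mitochondrial limit held Cxcl2 at 893 CPM (678 to 1155), against 125 CPM in its kept cells, and 53 of those 58 UMIs were in 1 barcode. The same 54 barcodes held Cxcl16 at 200 CPM (107 to 342) on 13 UMIs, against 88.5 CPM in the kept cells. The 7 Ptprc-positive barcodes of knockout aorta held Ccl5 at 2842 CPM (2297 to 3478), against 38.8 CPM in the kept cells, with all 94 UMIs in 1 barcode. The 5 Ptprc-positive barcodes of wild-type lung held Cxcl2 at 332 CPM on 6 UMIs, 5 of them in 1 barcode, against 10.8 CPM in the kept cells, and Ccl2 at 221 CPM on 4 UMIs, against 1.36 CPM in the kept cells.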

How the results depend on the processing

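Without replicates only the settings could be varied, and counts of 2-fold members moved with a few cells. Between knockout and wild-type aorta the count of 2 was 0 with the mean of per-cell CPM, with cells thinned to 1000 UMIs, without each library's highest cell, with the 8 clusters of at least 20 cells in both libraries weighted alike (which leaves out cluster 1 and the deepest wild-type cell) and without that cell. In these settings 4 instead of 6 members were measured, and Cxcl9, still over 2-fold lower in all of them but the weighted clusters, was no longer measured. The count was 1 with Ptprc not used or with every leukocyte marker at 0, and 4 with no filter on low counts. The other 3 comparisons went to 3 (lung, from 0), 7 (wild-type tissues, from 4) and 7 (knockout tissues, from 3) with no filter on low counts, and that of wild-type tissues to 2 by per-cell CPM, thinning or leaving out the highest cells. Ccl5 changed direction between the aortic genotypes, with a log2 ratio of -1.32 by summed counts and of 1.59 by per-cell CPM, 2.095 thinned, 3.52 over those 8 clusters and 5.24 without the deepest wild-type cell, against -7.12 with leukocyte markers at 0 and -7.14 with Pecam1 or Cdh5 asked for. Cxcl9 stayed lower in the knockout in all its settings, between -3.00 and -0.15. Cxcl12 (0.41 to 0.71) and Cxcl16 (0.44 to 0.74) stayed higher in knockout aorta in 13 settings.

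At 1000 UMIs per cell, members in at least 1% of cells numbered 7, 6, 4 and 4 in knockout aorta, wild-type aorta, knockout lung and wild-type lung, and 3, 3, 1 and 1 when 2 UMIs were asked for; without thinning they numbered 9, 6, 4 and 5. Pairs in at least 5 cells went from 11 to 26 in knockout aorta, from 1 to 10 in wild-type aorta and from 0 to 2 in knockout lung without thinning, and to 2 in wild-type aorta at 2000 UMIs. The remaining alternatives were chosen after seeing the data, as was leaving out the deepest cell. Members with 50% or more of their UMIs in 1 cell went from 1 to 0 in knockout aorta (with Pecam1 or Cdh5 asked for, or leukocyte markers at 0), from 3 to 1 in wild-type aorta (without the deepest cell), from 0 to 1 in knockout lung (Pecam1 or Cdh5) and from 2 to 1 in wild-type lung (these filters or endothelial clusters alone). In knockout aorta the NF-kappaB ratio of 1.86 was 1.67 at 2000 UMIs and 1.495 without cluster 6, the immediate early ratio of 2.22 was 1.91 and 1.905, and the interferon ratio of 4.72 was 3.43 at 2000 UMIs. The causes were not tested beyond what each setting leaves out. No paired analysis was possible because each group is 1 library. Depth limits the low members: 3 counts are 0.684 CPM in knockout aorta and 3.03 CPM in wild-type aorta.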
